A study of Mus musculus with 12 samples.

Results

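IL-1R1-deficient glia were compared with wild-type glia after both had received IL-1β. The comparison used 5 of the 12 deposited arrays: IL-1R1-/- glia with IL-1β, replicates 1 and 2, and wild-type glia with IL-1β, replicates 1 to 3. The IL-1R1-/- array labelled as IL-1β replicate 3 was left out, because its values were those of an IL-1R1-/- vehicle array divided by a constant. Arrays were chosen by their labels and by this check, and probes were kept if they had a value on all 5 arrays, which 5713 of 8734 did (65.41%). They covered 3997 named genes.

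The cells were primary mixed glial cultures from mice, kept for 10 to 12 days after isolation. Both groups received rrIL-1β at 10 ng/ml for 4 hours before RNA was taken; the label of IL-1R1-/- replicate 2 writes IL-1β for the same dose and time. The series also holds both genotypes with vehicle alone for 4 hours. Each IL-1β array has a vehicle partner with the same replicate number and genotype, and the design text calls the replicates of a genotype independent biological ones. The labels give neither the strain nor the age of the mice, the deleted part of Il1r1, or how many animals went into a culture. The receptor was lacking in every cell of a mixed culture, so the comparison does not separate astrocytes from microglia. RNA was reverse transcribed with 33P-labelled nucleotide, and with so few arrays their number sets the precision of each value.

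IL-1R1 is the receptor through which interleukin-1 signals. On binding IL-1β it joins the accessory protein Il1rap and recruits Myd88 and the Irak kinases, which lead through Traf6 to the IκB kinase complex and to release of NF-κB into the nucleus. In glia this pathway induces chemokines, acute-phase proteins and the pathway's own inhibitors, Nfkbia among them, within hours. Astrocytes and microglia both take part in this response, and the receptor antagonist and a decoy receptor limit it.

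Before the results, some columns stood apart. The values of IL-1R1-/- IL-1β replicate 3 equalled those of IL-1R1-/- vehicle replicate 1 at a ratio of 1.671 at 6531 of 6584 shared probes. The column of IL-1R1-/- vehicle replicate 3 matched wild-type vehicle replicate 1 at a ratio of 1.122 at 5959 of 5982 probes. Equality means within 1e-04 on the log2 scale, and the next most alike pair shared a ratio at 0.0857% of probes. Which label of a copied pair is the right one cannot be told from the values. None of the 5 arrays compared here is one of the copied columns, but the vehicle partners of IL-1R1-/- replicate 1 and wild-type replicate 1 are. Their deposited intensities differed in scale, with medians of 33780 and 60399 on the IL-1R1-/- arrays and 17708, 4866 and 24600 on the wild-type arrays. All values below are therefore log2 intensities after quantile normalization, which gives the 5 arrays the same distribution. Wild-type replicate 2 correlated least with the other arrays (r = 0.708 to 0.782 across probes, against 0.847 to 0.876 for the other pairs).

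Under IL-1β, IL-1R1-deficient glia had less Lcn2 RNA than wild-type glia, and this was the 1 of 5713 probes (0.0175%) past the threshold in the lower direction. Ptx3, Ccl12, Steap4, Nfkbia and Tnfaip2 were also lower on both deficient arrays than on all 3 wild-type arrays, by 2.301-fold to 9.587-fold, but did not pass. All of these are on a list of wild-type responders taken earlier from these same arrays. H2az1 (2.467-fold) and Gbp3 (2.44-fold) lay in the same range and did not pass either. Of all 5713 probes, 9.05% had both deficient arrays below all wild-type arrays. No probe passed in the higher direction (0 of 5713, or 0%), although 99 were higher and 86 lower at an unadjusted p under 0.05. The test was limma's moderated test with Benjamini-Hochberg adjustment over all 5713 probes and a threshold of 0.05. In what follows, "passed" refers to this test, a difference is IL-1R1-deficient minus wild-type on the log2 scale, and array values are in the order of the replicate numbers. In bulk RNA, fewer cells of a type and less RNA per cell cannot be told apart. The p-values and SE rest on the spread between these 5 cultures, which limma draws toward a value common to all probes. They are thus not the spread of 1 gene alone. A p that misses the threshold does not show that levels were alike.

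**Figure D1:**
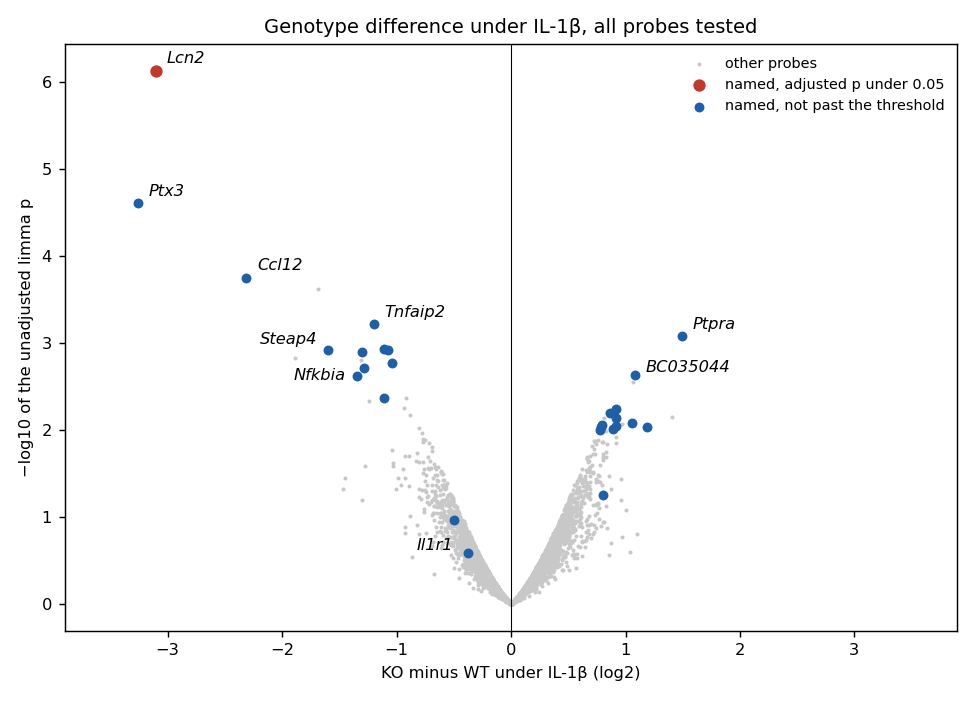
Each point is 1 of the 5713 probes; the horizontal axis is the log2 difference, IL-1R1-deficient (KO) minus wild-type (WT) glia under IL-1β (n = 2 and 3), and the vertical axis the −log10 of the unadjusted limma p. Lcn2 (red) is the point past the threshold, Ptx3 and Ccl12 come next on the lower side, and Ptpra leads the higher side without passing.

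The probe of Il1r1, the gene deleted in these mice, came first. Its log2 intensity was 13.96 and 14.18 on the IL-1R1-deficient arrays and 14.30, 15.02 and 14.02 on the wild-type arrays. The groups overlapped, since wild-type replicate 3 lay between the deficient arrays. The difference was -0.38 ± 0.32 (SE, limma adjusted p = 0.995), and it was -0.15 after removal of a position trend described below. Neither the deleted part of the gene nor the place of the probe in the transcript is given in the sources used here, so the probe does not check the genotype labels. Among the 15 genes on each side of Il1r1 on its chromosome, 9 of 30 were measured, with differences between -0.34 for the kinase Map4k4 and 0.48 for Tbc1d8. Neither of these passed, nor did the other 7.

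The other measured members of the IL-1 receptor pathway were close to 0. Of 31 genes in this list 6 were measured, 0 had both deficient arrays outside the wild-type range, and the median difference was -0.02 beside -0.02 over all 3997 genes. As 9.05% of all 5713 probes lay below and 8.93% above all wild-type arrays, a count of 0 among 6 says little. Peli1, a ubiquitin ligase that acts on Irak proteins, had -0.18, and Traf6, the ubiquitin ligase below the receptor, had 0.05. The IκB kinase subunits Ikbkg and Ikbkb had -0.03 and 0.29, and Casp1, the protease that matures IL-1β, had 0.00. The list therefore showed no member past the threshold in either direction.

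Lcn2 encodes lipocalin-2, a secreted protein that withholds iron from bacteria by binding their siderophores and that reactive astrocytes make. Its log2 intensity was 14.15 and 14.33 in IL-1R1-deficient glia and 17.84, 17.04 and 17.15 in wild-type glia. The lowest wild-type array was far above both deficient arrays, which lay close together. The difference was -3.11 ± 0.30 (SE, n = 2 and 3), or 8.601-fold lower, with a limma adjusted p = 0.0042. It was -3.17 with the position trend removed (adjusted p = 0.00263). Lcn2 lost the call without either deficient array (limma adjusted p = 0.192 without replicate 1 and 0.124 without replicate 2), without wild-type replicate 3 (0.0511), and with median centring in place of quantile normalization (0.301), while its difference stayed between -3.43 and -2.77 in every setting with normalization between arrays. With 1 deficient array left, the gene's own spread comes from the wild-type arrays alone, and that array is assumed to share it.

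Ptx3, the long pentraxin that binds microbes and complement, had the largest difference of all genes tested. Its values were 14.47 and 14.57 in deficient glia and 18.82, 17.62 and 16.90 in wild-type glia. The wild-type arrays spread over almost 2 log2 units while the deficient arrays differed little, and the groups did not overlap. The difference of -3.26 ± 0.46 (SE), 9.587-fold, had a limma adjusted p = 0.0699 and so missed the threshold. It passed in 7 of 16 other settings, among them without wild-type replicate 1 (difference -2.64) and without wild-type replicate 2 (-3.44). Without wild-type replicate 3 it was -3.74 and did not pass. The 7 include the setting with the copied deficient replicate 3 column added, which is a vehicle array under another label or the reverse.

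Ccl12, a chemokine that draws monocytes, was measured by a pair of probes. The brighter one read 14.05 and 14.77 in deficient glia and 17.58, 16.22 and 16.36 in wild-type glia, and the other read 14.74 and 14.45 against 17.13, 15.43 and 16.89. Both probes put the deficient arrays below all wild-type arrays, and wild-type replicate 1 was the highest on both. The differences were -2.32 ± 0.41 and -1.89 ± 0.44 (SE), with limma adjusted p = 0.336 and 0.733. Cross-hybridisation with related chemokine transcripts was not tested.

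Nfkbia, which encodes IκBα, keeps NF-κB out of the nucleus and is itself an NF-κB target; it was read by a pair of probes. The brighter one had 15.16 and 15.07 in deficient glia and 17.15, 16.01 and 16.23 in wild-type glia, and the other had 14.08 and 14.62 against 16.27, 16.27 and 15.56. Both showed the deficient arrays below all wild-type arrays. The differences were -1.35 ± 0.34 and -1.68 ± 0.31 (SE), and neither passed (limma adjusted p = 0.856 and 0.34).

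Tnfaip2, a transcript that tumour necrosis factor induces, had the tightest wild-type group of these genes. It read 14.76 and 14.48 in deficient glia and 15.94, 15.74 and 15.79 in wild-type glia. The gap between the groups was larger than the spread within either, and the difference was -1.20 ± 0.25 (SE, limma adjusted p = 0.682). Steap4, a metalloreductase, read 14.84 and 14.82 against 16.63, 15.66 and 16.99. The deficient arrays were nearly equal and the wild-type arrays spread over more than 1 unit. Its difference was -1.60 ± 0.36, with an adjusted p of 0.73 in limma.

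Osmr, the oncostatin M receptor subunit, read 14.94 and 14.71 in deficient glia and 16.03, 15.74 and 16.03 in wild-type glia, a difference of -1.11 ± 0.25 (SE). Gbp3, an interferon-inducible GTPase, read 14.64 and 15.16 against 16.22, 16.61 and 15.74, a difference of -1.29 ± 0.31. Neither passed (limma adjusted p = 0.73 and 0.78), and in neither did the groups overlap.

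A further 4 genes were named by the same rule, which filled the list with the smallest p among genes whose groups did not overlap. H2az1, a histone variant, had -1.30 ± 0.30, Ubfd1, a protein with a ubiquitin-like domain, had -1.08 ± 0.25, Trmt1l, a relative of a tRNA methyltransferase, had -1.11 ± 0.31, and Oas2, an interferon-induced sensor of double-stranded RNA, had -1.04 ± 0.25 (SE). None passed. Second probes disagreed for 3 of them, with -0.06 for Oas2, -0.16 for Trmt1l, and 0.10 and -0.38 for Ubfd1. In vehicle, H2az1 and Ubfd1 were already lower in deficient glia, at -0.74 and -0.61, while Oas2 had -0.13 and Trmt1l 0.37.

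**Figure D2:**
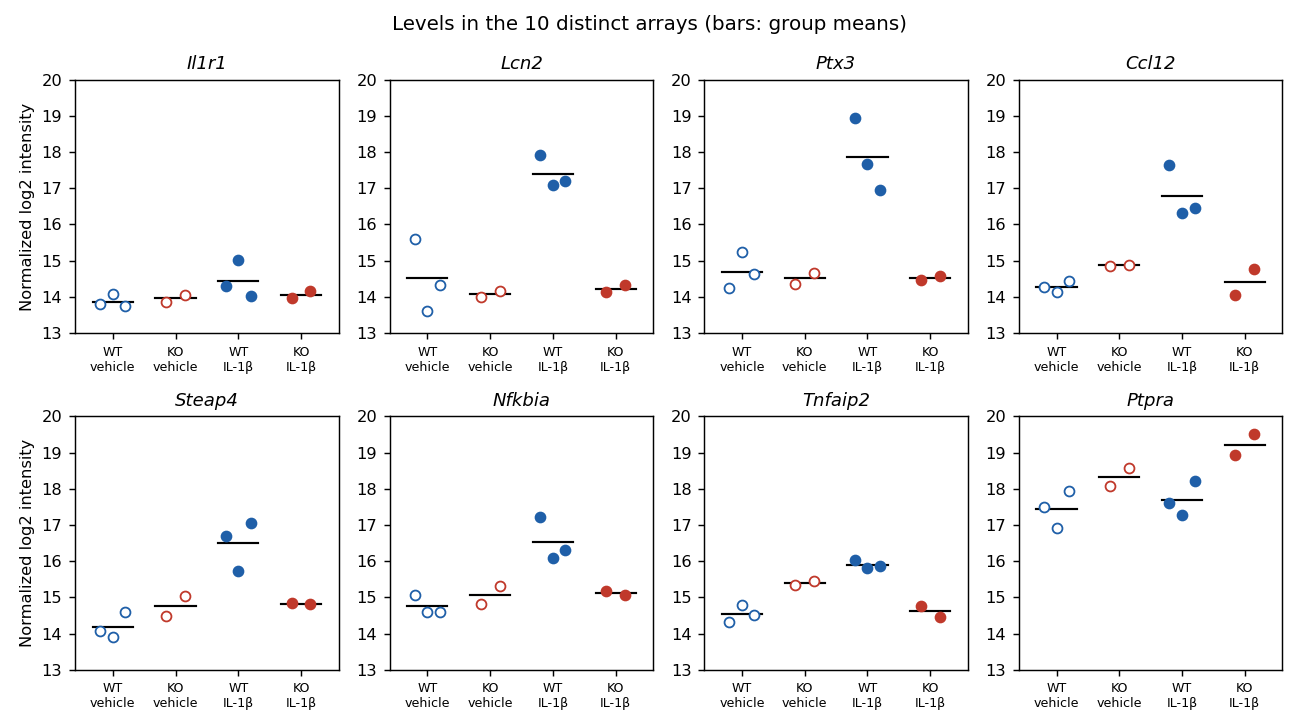
Normalized log2 intensity of 8 genes on the 10 distinct arrays: open circles vehicle, filled circles IL-1β, blue wild-type (WT, 3 arrays per treatment), red IL-1R1-deficient (KO, 2 arrays per treatment), bars group means. For Lcn2, Ptx3, Ccl12, Steap4, Nfkbia and Tnfaip2 the IL-1β-treated wild-type arrays lie above the IL-1β-treated deficient arrays; for Il1r1 the groups overlap, and Ptpra is higher on the deficient arrays.

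The genotype difference under IL-1β was then set beside the one in vehicle, which asks whether the deficient cultures already differed without the cytokine. All 10 distinct arrays were normalized together for this, so values shift slightly from those above, and the change of the difference was tested in limma with culture as a block. It passed at 9 of 5713 probes (0.158%), all with a lower deficient level under IL-1β than the vehicle difference would give; some other settings also called probes in the opposite direction, such as 21 of 36 without wild-type replicate 3. They were single probes of Lcn2, Ptx3, Steap4 and Tnfaip2, both probes of Ccl12, both of Nfkbia, and probe 4650, which has no gene name. At an unadjusted p under 0.05 there were 804 probes, these 9 included.

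In vehicle, Lcn2 read 13.99 and 14.16 in deficient glia and 15.61, 13.61 and 14.32 in wild-type glia on this scale. The groups overlapped there, with wild-type replicate 1 above and replicate 2 below both deficient arrays. With IL-1β the deficient arrays read 14.14 and 14.31, inside the range of the wild-type vehicle arrays. The difference was -0.43 in vehicle and -3.18 under IL-1β, a change of -2.75 ± 0.33 (SE, limma adjusted p = 0.00593). Ptx3 read 14.37 and 14.67 in deficient vehicle glia and 14.23, 15.24 and 14.63 in wild-type vehicle glia, again overlapping. Its difference went from -0.18 to -3.35, a change of -3.17 ± 0.54 (adjusted p = 0.0332).

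For the other 4 genes the deficient vehicle cultures had the higher mean. Ccl12 was higher in deficient than in wild-type vehicle glia by 0.58 and lower by -2.40 under IL-1β, a change of -2.98 ± 0.39 (SE, limma adjusted p = 0.00683). Tnfaip2 went from 0.86 to -1.29 (change -2.15 ± 0.29, adjusted p = 0.00798), and Steap4 from 0.58 to -1.67 (change -2.25 ± 0.32, adjusted p = 0.00798). Nfkbia went from 0.31 to -1.41 (change -1.72 ± 0.31, adjusted p = 0.0423). Part of each of these changes is thus the positive vehicle difference. The vehicle arrays of Tnfaip2 did not overlap, at 15.36 and 15.44 in deficient glia and 14.33, 14.79 and 14.52 in wild-type glia. Those of Ccl12 did not either, at 14.86 and 14.87 against 14.28, 14.12 and 14.45.

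Both vehicle arrays with copies belong to cultures of this test. Without those cultures the change was -2.81 for Lcn2, -2.30 for Ptx3 and -2.15 for Steap4, which passed in limma (adjusted p = 6.53e-05, 0.00548 and 0.0148). It was -1.96 for the brighter Ccl12 probe, -1.91 for Tnfaip2 and -1.60 for Nfkbia, which did not (0.051, 0.0604 and 0.314); the lone deficient culture left there is taken to vary as the wild-type cultures do. Without deficient replicate 2 the call was lost by Ptx3, Tnfaip2, Steap4 and Nfkbia (limma adjusted p = 0.227, 0.227, 0.239 and 0.532), and without wild-type replicate 1 by Steap4, Tnfaip2 and Nfkbia (0.0844, 0.0717 and 0.211). Without deficient replicate 1 Nfkbia alone of the 6 lost it (0.0682).

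**Figure D3:**
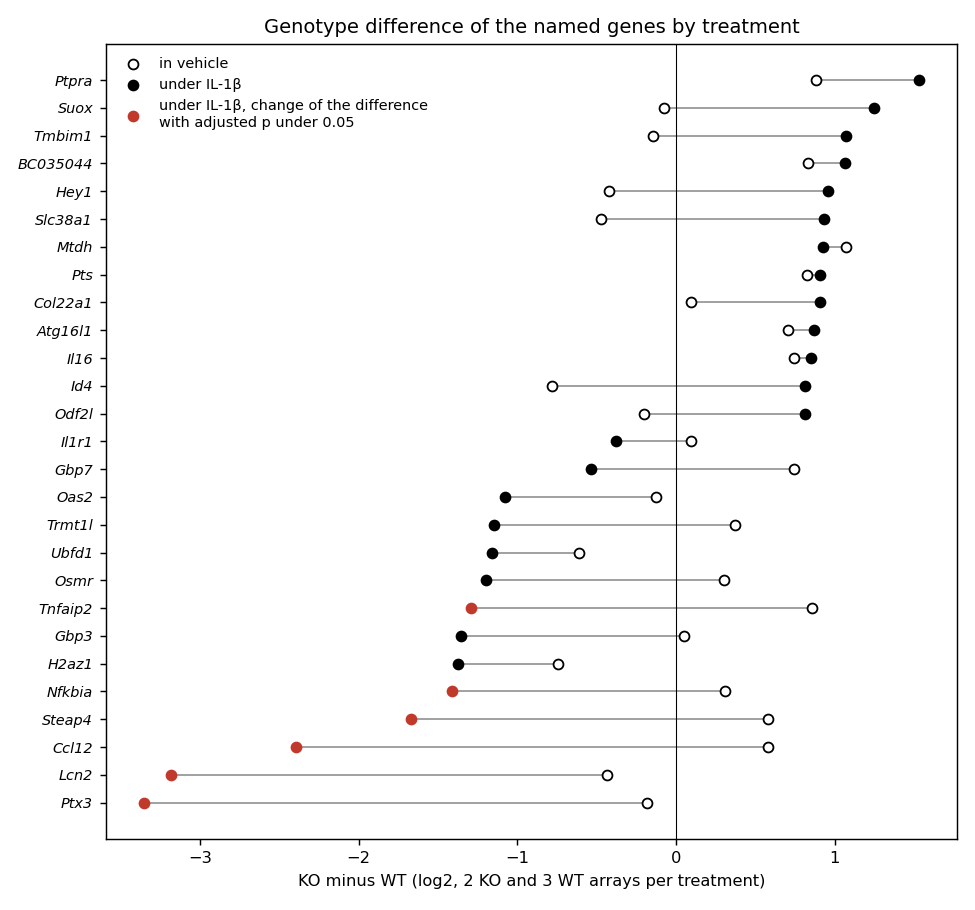
Difference between IL-1R1-deficient (KO) and wild-type (WT) glia on the log2 scale for 27 named genes, in vehicle (open) and under IL-1β (filled; red where the change between them passed in limma). Ptx3 and Lcn2 reach the lowest values under IL-1β from small negative vehicle differences, Tnfaip2, Ccl12, Steap4 and Nfkbia cross from above 0, and Ptpra, BC035044, Mtdh, Pts, Atg16l1 and Il16 are higher in both treatments.

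The 250 bases before the annotated start of these 6 genes, from RefSeq on build GRCm38.p6, are shown for the genes that hold a match to the NF-κB (kB) consensus and for Lcn2, the gene that passed. Both strands were searched, and capitals mark the matching bases. A match was present in 7.251% of 32851 promoter windows of this length. Nfkbia (chr12:55492648-55492897, minus strand) and Tnfaip2 (chr12:111442411-111442660, plus strand) held 1 match each, whose first base lay 29 and 24 bases before the start. Steap4 (chr5:7960222-7960471, plus strand) held 3, of which a pair covers the same bases on opposite strands.
Nfkbia: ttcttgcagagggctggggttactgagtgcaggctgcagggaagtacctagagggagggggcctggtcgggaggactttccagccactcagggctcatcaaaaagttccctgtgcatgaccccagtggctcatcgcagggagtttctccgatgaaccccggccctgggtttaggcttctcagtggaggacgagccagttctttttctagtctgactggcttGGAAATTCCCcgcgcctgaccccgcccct
Tnfaip2: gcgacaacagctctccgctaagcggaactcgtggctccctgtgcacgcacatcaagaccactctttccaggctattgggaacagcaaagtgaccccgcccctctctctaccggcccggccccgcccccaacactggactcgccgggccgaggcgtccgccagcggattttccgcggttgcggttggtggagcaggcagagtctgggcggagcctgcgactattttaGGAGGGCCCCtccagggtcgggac
Steap4: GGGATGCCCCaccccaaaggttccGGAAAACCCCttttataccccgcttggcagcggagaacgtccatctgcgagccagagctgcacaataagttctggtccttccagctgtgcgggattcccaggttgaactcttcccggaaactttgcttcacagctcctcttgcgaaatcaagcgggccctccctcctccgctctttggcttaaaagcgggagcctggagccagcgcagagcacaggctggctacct
Lcn2: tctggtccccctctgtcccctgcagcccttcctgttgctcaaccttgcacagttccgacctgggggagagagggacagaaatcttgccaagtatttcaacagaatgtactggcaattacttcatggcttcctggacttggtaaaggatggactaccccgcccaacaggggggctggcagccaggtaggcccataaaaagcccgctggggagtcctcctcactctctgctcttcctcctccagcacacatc
The Lcn2 window (chr2:32387740-32387989, minus strand) and those of Ptx3 (chr3:66219637-66219886) and Ccl12 (chr11:82101595-82101844, both plus strand) held none. A match describes letters, and binding was not measured.

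In the acute-phase, iron and complement list 11 of 33 genes were measured, and 4 had both deficient arrays below all wild-type arrays: Ptx3, Lcn2, Steap4 and C1ra. Over all 5713 probes 9.05% did so, and 8.93% had both deficient arrays above all wild-type arrays. C1ra, a complement protease, had -0.30 ± 0.25 (SE), and Hamp, which encodes the iron regulator hepcidin, was the 1 member above, at 0.30. The median of the list was -0.29 beside -0.02 over all genes, and 1 member, Lcn2, passed. Cst3, the protease inhibitor cystatin C, had -0.92 with overlapping groups, and its difference in vehicle was -1.65.

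In the NF-κB list 10 of 29 genes were measured. Of these 4 lay below all wild-type arrays and 0 above, against 9.05% and 8.93% of all probes. The 4 were Nfkbia and Tnfaip2, both also on the wild-type response list below, and 2 others. Those were Birc3, an inhibitor of apoptosis (-0.31 ± 0.24 SE), and the kinase Tbk1 (-0.29). The median was -0.24, 9 of 10 members were negative, as were 2072 of 3997 genes, and 0 passed. The NF-κB precursor Nfkb2 (-0.28), the deubiquitinase Cyld (-0.19) and Nfkbiz (-0.12) overlapped, and Zc3h12a, an RNase that degrades cytokine transcripts, was the 1 positive member, at 0.34.

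Among chemokines Ccl12 was the 1 of 9 measured members below all wild-type arrays. Another 1 lay above all wild-type arrays, and the median was -0.02. The shares over all 5713 probes were 9.05% below and 8.93% above. Ccl4, a macrophage chemokine, read 14.12 and 13.98 in deficient glia and 14.11, 14.98 and 14.70 in wild-type glia. Wild-type replicate 1 fell between the deficient arrays, and the difference of -0.54 ± 0.30 (SE) did not pass. The membrane-bound chemokine Cx3cl1 had -0.50, and Ccl27a, at 0.26, was the 1 above.

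Among cytokine receptors 7 were measured, and Osmr was the 1 below all wild-type arrays (median of the list -0.12). Among 6 measured cytokines and growth factors, Il16, a chemoattractant for CD4+ cells, had 0.78 ± 0.25 and Pdgfa, a growth factor for oligodendrocyte precursors, had -0.37 (median 0.00). Of 5 enzymes of prostaglandin, nitric oxide and arginine metabolism 0 lay outside the wild-type range. Ptges, the inducible prostaglandin E synthase, had -0.67 ± 0.38 (SE) with overlapping groups. No member of these 3 lists passed. Beside these counts, 9.05% of all 5713 probes lay below and 8.93% above all wild-type arrays.

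In the interferon response list 11 of 43 genes were measured, and 0 passed. Among the guanylate-binding proteins Gbp3, Gbp9 and Gbp7 had -1.29, -0.94 and -0.50, and a second probe of Gbp7 had -0.53, each with the deficient arrays below all wild-type arrays, while in vehicle Gbp3 and Gbp7 had 0.05 and 0.75 by their brightest probes. Usp18, the protease that removes ISG15, read 14.37 and 14.08 against 15.53, 14.59 and 14.74, a difference of -0.73 ± 0.32 (SE). Oasl2 ran the other way, at 15.82 and 15.84 in deficient glia and 15.59, 15.09 and 14.94 in wild-type glia. In all 4 members lay below and 1 above, beside 9.05% and 8.93% of all probes. The median was -0.23, and Rsad2, Irf9 and Iigp1 lay between -0.08 and 0.06. Whether transcripts of related Gbp genes bind each other's probes was not tested.

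**Figure D4:**
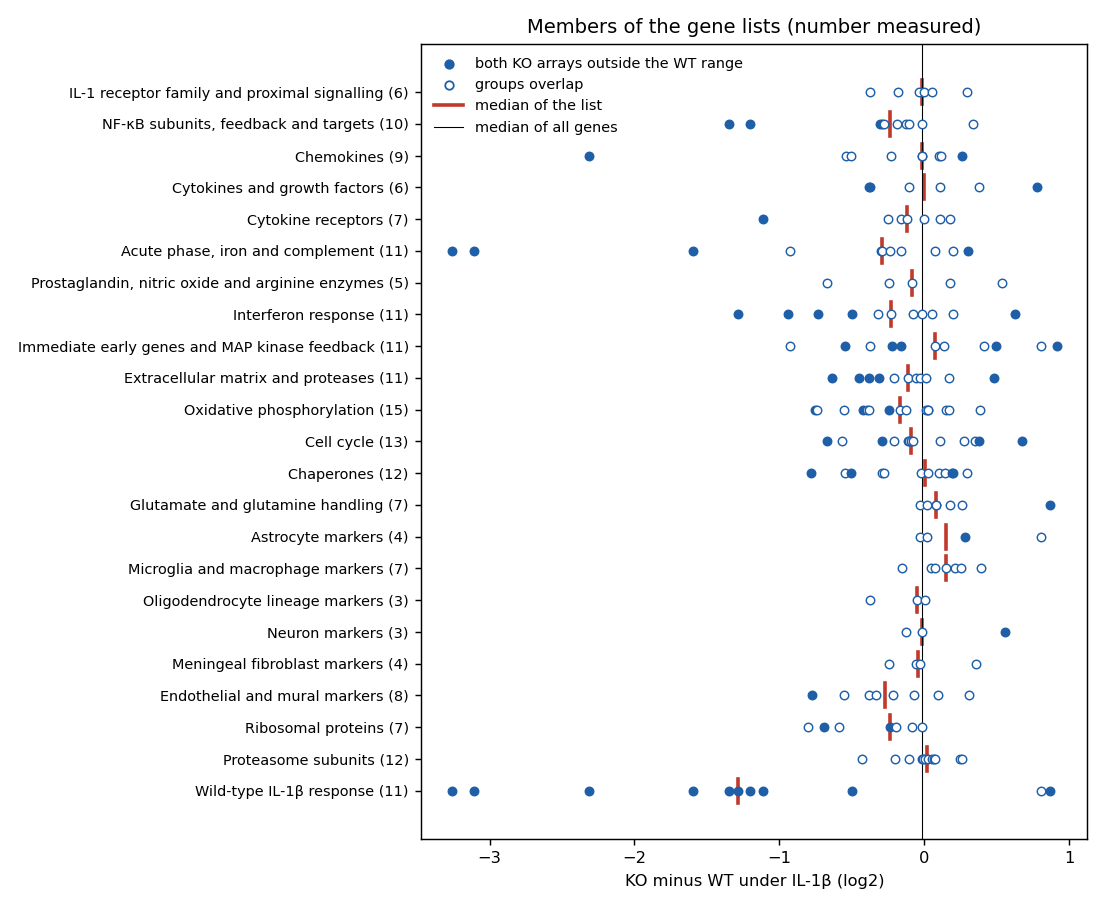
Differences, IL-1R1-deficient (KO) minus wild-type (WT) under IL-1β, of the measured members of the gene lists (number measured in brackets); filled points have both KO arrays outside the WT range, red bars are list medians and the thin line is the median of all genes. The points below -1 belong to the acute-phase, chemokine, NF-κB, interferon and cytokine receptor lists and to the wild-type response list, which repeats them.

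An 11-gene list of the strongest wild-type responders came from an earlier analysis of the same wild-type IL-1β arrays. It is therefore not independent evidence of direction, of size or of separate groups. Its 11 members were all measured, 9 lay below and 1 above all wild-type arrays, and the median was -1.29. The shares over all 5713 probes were 9.05% below and 8.93% above. Slc38a1 and Id4, its members that IL-1β lowers in wild-type glia, were the positive ones. Slc38a1, a glutamine transporter of astrocytes and neurons, read 15.85 and 16.11 in deficient glia and 15.33, 14.98 and 15.04 in wild-type glia. The groups did not overlap and the difference was 0.87 ± 0.25 (SE, limma adjusted p = 0.995), against -0.48 in vehicle. The change between treatments was 1.40 ± 0.28 (adjusted p = 0.0642), and it passed after removal of the position trend. Id4, which blocks helix-loop-helix transcription factors, overlapped, with a difference of 0.80 ± 0.37 that was 0.403 without deficient replicate 2, 0.475 without wild-type replicate 3 and 1.204 without deficient replicate 1.

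Of the 12 genes named for higher values in deficient glia 0 passed, and 6 of them were also higher in vehicle by 0.71 or more. Ptpra, a receptor-type tyrosine phosphatase that activates Src kinases, read 18.82 and 19.40 in deficient glia and 17.56, 17.20 and 18.11 in wild-type glia. The groups did not overlap, and the difference was 1.49 ± 0.32 (SE, 2.809-fold, limma adjusted p = 0.73). In vehicle the difference was 0.88. BC035044 had 1.08 under IL-1β and 0.83 in vehicle, Mtdh, also called metadherin, 0.92 and 1.07, Pts, an enzyme of tetrahydrobiopterin synthesis, 0.92 and 0.83, the autophagy gene Atg16l1 0.80 and 0.71, and Il16 0.78 and 0.74. For these 6 genes the change between treatments had limma adjusted p between 0.299 and 0.928. In the list order of the array, Ptpra and Pts are probes 4592 and 4589, and BC035044 and Il16 are probes 5281 and 5283. Second probes gave -0.31 for Pts and -0.14 for Mtdh.

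The other 6 had vehicle differences between -0.48 and 0.09. Beside Slc38a1 these were Hey1, a Notch target and transcriptional repressor (0.92 ± 0.28 SE), Tmbim1 (1.06 ± 0.33), the sulfite oxidase Suox (1.19 ± 0.37), the collagen Col22a1 (0.89 ± 0.28) and Odf2l (0.79 ± 0.25, or 0.36 with the position trend removed). Suox and Tmbim1 were much higher on deficient replicate 1, at 16.54 and 15.31, than on replicate 2, at 15.26 and 14.35. Without replicate 1 their differences were 0.54 and 0.58, and without replicate 2 they were 1.90 and 1.57. A second probe gave -0.08 for Hey1 and 0.25 for Suox.

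Lists outside the inflammatory response held no member that passed. Beside their counts below and above stand the shares over all 5713 probes, 9.05% and 8.93%. Among 11 immediate early genes 3 lay below and 2 above all wild-type arrays (median 0.08); Myc, a growth-promoting transcription factor, had -0.93 with overlapping groups. Among 11 matrix and protease genes 4 lay below and 1 above (median -0.12), with the matrix glycoprotein Thbs2 at -0.64. Among 12 chaperones 2 lay below and 1 above (median 0.00). Hmox1, the stress-induced haem oxygenase, read 14.11 and 14.16 in deficient glia and 15.14, 14.74 and 14.87 in wild-type glia. Its difference of -0.78 ± 0.25 (SE), with separate groups, was the largest of that list.

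In the oxidative phosphorylation list 3 of 15 measured members lay below and 0 above (median -0.17), led by the complex I subunit Ndufa6 at -0.75. Of all 5713 probes, 9.05% lay below and 8.93% above. The median of the oxidative phosphorylation list in vehicle was -0.39. All 7 measured ribosomal protein genes were negative, 2 of them below all wild-type arrays (median -0.24), with Rpl8 at -0.80 and Rpl23 at -0.69. Of all genes, 2072 of 3997 were negative. In vehicle the ribosomal median was -0.28, with Rpl8 at -1.34 and Rpl23 at -0.28. The 12 proteasome subunits overlapped throughout (median 0.02). In the cell cycle list 2 of 13 lay below and 2 above (median -0.09), from the mitotic kinesin Kif20a at -0.67 to cyclin E, Ccne1, at 0.68. Glutamate and glutamine genes had a median of 0.08, and Slc38a1 was the 1 of 7 outside the wild-type range.

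Cell-type markers were read for the make-up of the groups. Probes were kept only with a value on every array, so each measured marker has an intensity on every array by that rule. The arrays carry no detection call, so a value does not show that a transcript is present. The markers therefore do not check the label of mixed glia. For the counts that follow, the shares over all 5713 probes were 9.05% below and 8.93% above all wild-type arrays. Of 7 measured microglia and macrophage markers, such as Itgam, Cd68, Tyrobp and C1qc, 0 lay outside the wild-type range, and their mean level was 15.47 to 15.48 on the deficient arrays and 15.10 to 15.62 on the wild-type arrays. Of 4 astrocyte markers, Slc1a2, Glul, Sox9 and Id4, 1 lay above, Sox9 at 0.28, and the mean level was 14.53 to 15.14 against 14.43 to 14.69. Id4 had the largest difference of the 4, at 0.80, and is also on the wild-type response list. Their mean thus does not separate make-up from the response to IL-1β. The 3 oligodendrocyte lineage markers, Olig2, Mbp and Pdgfra, overlapped, at 14.49 to 14.69 against 14.13 to 15.20.

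Of 3 neuron markers 1 lay above (Nefl, 0.56), 4 meningeal fibroblast markers overlapped, and of 8 endothelial and mural markers 1 lay below (Cnn1, -0.77, a smooth muscle protein). The endothelial and mural mean was 13.91 to 14.09 on the deficient arrays and 14.07 to 14.43 on the wild-type arrays. Beside these counts, 9.05% of all 5713 probes lay below and 8.93% above all wild-type arrays. No marker passed, and no ependymal or choroid marker was measured. The part of cell composition in the differences above was not tested.

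Differences were related to probe position in the list order. The difference at a probe correlated with that at the next probe (r = 0.352 across 5713 probes), and with r = 0.149 after a smooth trend over an inferred layout of plates with 16 rows and 24 columns was subtracted from each array; neighbouring probes are not independent. Lcn2, Ptx3, Ccl12, Steap4, Nfkbia and Tnfaip2 then had -3.17, -3.36, -2.28, -1.60, -1.47 and -1.09, and Lcn2 alone passed again. Ptpra had 1.33, BC035044 0.96, Hmox1 -0.66 and Gbp9 -0.72. The change between treatments then passed at 15 probes, 14 lower and 1 higher, adding Gbp3, Gbp7, Osmr, Kif20a, Slc38a1 and the unnamed probe 5279.

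**Figure D5:**
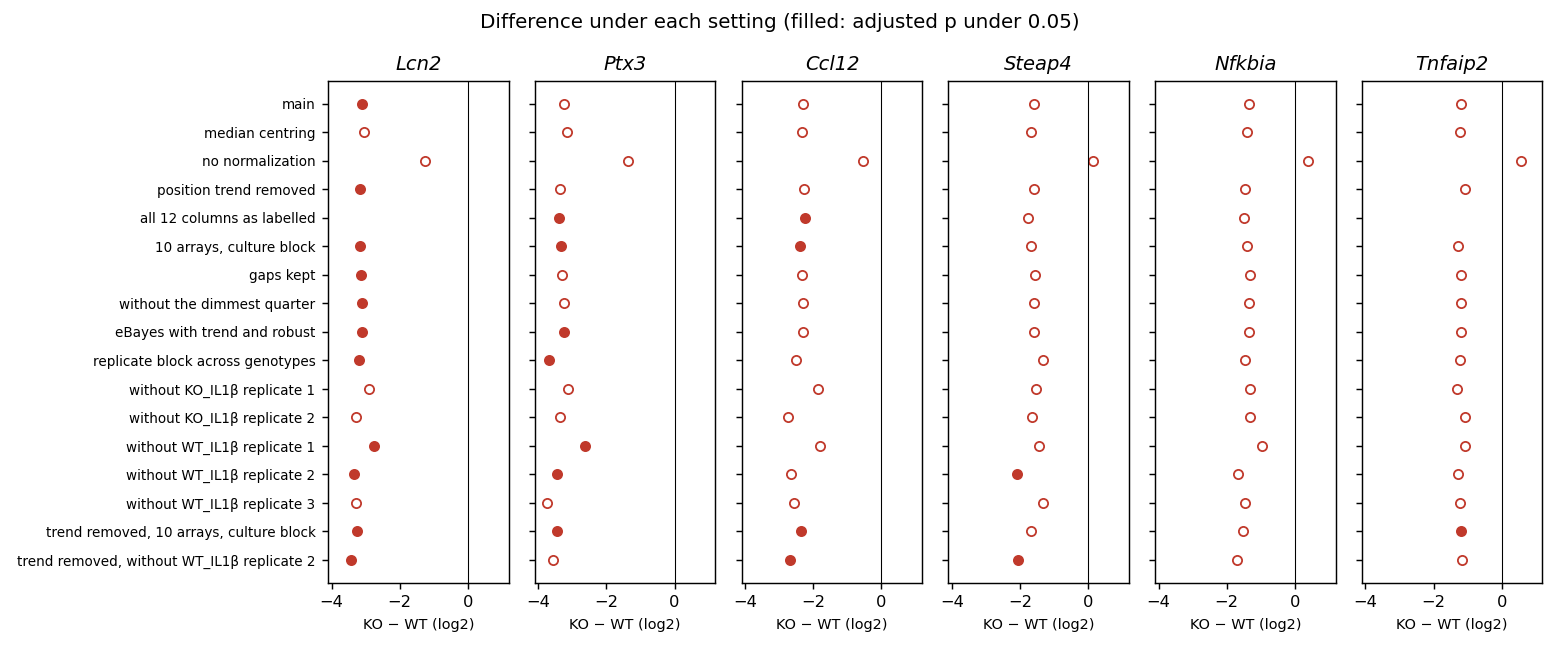
Difference (log2, IL-1R1-deficient minus wild-type under IL-1β) of 6 genes under the reported fit (main) and 16 other settings; filled points passed in limma, and a missing point means that the gene was not tested there. All points are below 0 for every gene except without normalization between arrays, where Steap4, Nfkbia and Tnfaip2 cross to 0.13, 0.40 and 0.58. The setting labelled all 12 columns holds the IL-1β columns alone, with the copied deficient replicate 3 column added.

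Counting genes by their brightest probe, 18 genes were at least 2-fold lower in deficient glia and 5 at least 2-fold higher. The groups did not overlap for 14 of the 18 and for 4 of the 5. Of all 5713 probes, 9.05% had both deficient arrays below all wild-type arrays and 8.93% above. Choosing genes by the size of the difference makes separate groups likely, so these counts are not further evidence. Over all probes the SD of the differences was 0.31 and the median SE 0.28, and with 2 arrays against 3 an exact one-sided permutation test of any single gene cannot give a p below 0.1.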

How the data were processed

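Radioactive signals of 12 arrays of mouse mixed glia were analysed from the deposited value table. The deposited values are linear intensities per probe; the authors' scanning, background correction, scaling and filters, if any, were not given in the sources used here. In the table, the IL-1β and vehicle arrays of 1 culture miss identical probes. Depth has no counterpart here.

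Intensities were log2-transformed and quantile-normalized over the 5 arrays compared (limma 3.58.1, R 4.3.3). Each of 5713 complete probes was fitted with lmFit and eBayes on 2 group means. The change between treatments used 10 distinct arrays, each culture a block. Errors are SE of the fit from limma's moderated variance. Adjustment was by Benjamini and Hochberg, two-sided, threshold 0.05. The replicate number pairs the treatments of a culture, per the design text; it does not pair the genotypes.

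Of 8734 probes 7153 had 1 gene symbol in the platform annotation, 387 several and 1194 none. A gene's brightest probe stands for it. Per direction, 12 genes were named: those passing with non-overlapping groups, then by smallest p among non-overlapping genes; Il1r1, an earlier wild-type response list, and up to 4 members with the largest differences per list were added. The comparison, the members and all 24 lists were chosen with earlier results of these data known. The plate layout (16 by 24 wells, a break after plate 11) was inferred from the values, and its trend was removed by loess (span 0.2) in 2 parts. Alternatives changed normalization, probes, arrays, the block and eBayes (duplicateCorrelation through statmod 1.5.0, correlation within cultures 0.388). The script was tested on simulated data.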

Additional observations from a re-analysis of the deposited data

Results flagged for a closer look

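The genotype difference under IL-1β departed from that in vehicle for 6 named genes, by a test of that change itself (limma with culture as a block, 10 arrays). On the log2 scale the change was -3.17 for Ptx3, -2.98 for Ccl12, -2.75 for Lcn2, -2.25 for Steap4, -2.15 for Tnfaip2 and -1.72 for Nfkbia. It passed in 8 of 10 other settings for Ptx3 and Ccl12, 8 of 9 for Lcn2, 7 of 10 for Steap4, 5 of 9 for Tnfaip2 and 5 of 10 for Nfkbia. These settings include the one with the copied columns added as labelled, where Ptx3, Ccl12, Steap4 and Nfkbia passed. That setting uses the same arrays again under other labels, so its passes add no support. No group held enough arrays to look for a single array far from the others.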

How the results depend on the processing

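Under IL-1β 1 probe passed. The count was 0 with median centring (149 at an unadjusted limma p under 0.05) and 0 without normalization (1261). It was 3 with the copied column of IL-1R1-/- IL-1β replicate 3 added as labelled (4698 probes, without Lcn2). With 10 arrays and culture as a random block it was 4, and with a trended, robust eBayes 2. Leaving out 1 wild-type array gave 2 without replicate 1, 4 without replicate 2 and 0 without replicate 3. Leaving out a deficient array leaves 1 in that group, so no count is given. Settings chosen after seeing the data gave 7 for the position trend removed with 10 arrays, and 4 for it without wild-type replicate 2. Every call in these settings was lower in deficient glia. With the replicate block across genotypes 7 probes passed, including Lcn2, Ptx3, Nfkbia, Anxa5, Stat5a and Trmt112; like-numbered deviations correlated at 0.135 and 0.23, over 2 shared numbers, and nothing else pairs the genotypes.

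The change between treatments, 9 probes, was 264 with median centring (243 lower, 21 higher), 15 with the position trend removed, 0 with no replicate block (362 at an unadjusted limma p under 0.05) and 3 to 69 leaving out 1 culture: 3 without deficient replicate 2 (1 of them higher in deficient glia) or wild-type replicate 1, 69 without wild-type replicate 2 (22 higher, 47 lower) and 36 without wild-type replicate 3 (21 higher, 15 lower). Without both cultures that have copies, chosen after seeing the data, it was 8.

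Without normalization the median difference over all probes was 1.78, following the deposited scale, and 11 genes turned positive: Il1r1 1.44, Tnfaip2 0.58, Osmr 0.66, Steap4 0.13, Ubfd1 0.70, H2az1 0.40, Oas2 0.71, Gbp3 0.43, Nfkbia 0.40, Trmt1l 0.64 and Gbp7 1.25. In all other settings the named genes kept their direction. Background left in the intensities, whose lowest value was 26.48% to 33.48% of an array's median, was not tested.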

Other observations

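Some genes outside the naming rule, chosen after their values were seen, differed by at least 2-fold. Ahcyl2, a relative of S-adenosylhomocysteine hydrolase, read 14.07 and 14.08 in deficient glia and 15.96, 14.70 and 15.28 in wild-type glia under IL-1β, a difference of -1.24 ± 0.35 (SE, limma adjusted p = 0.995) against 0.15 in vehicle. Btrc, the F-box protein that marks phosphorylated IκB for degradation, read 16.30 and 17.16 against 18.39, 17.50 and 17.41, a difference of -1.04 against 0.15 in vehicle, and did not pass.

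Anxa5, Trmt112 and Stat5a were lower in both treatments. Under IL-1β their differences were -1.46, -1.30 and -1.28, and in vehicle -1.36, -1.04 and -0.70. Wild-type replicates 1 and 2 were high and replicate 3 was near the deficient arrays: Anxa5, a phospholipid-binding annexin, read 17.70, 17.48 and 15.20 in wild-type glia and 15.29 and 15.39 in deficient glia. Stat5a, a transcription factor of cytokine signalling, read 15.79, 15.96 and 14.09 against 13.69 and 14.30. None passed.

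Probes without a gene name included 4650, at 14.77 and 14.90 in deficient glia and 16.72, 15.84 and 15.89 in wild-type glia (difference -1.32), and 799, at 17.70 and 17.41 against 16.74, 15.16 and 16.54 (difference 1.41). Probe 4650 lies 2 places from the Trmt1l probe 4652 in the list order.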
